A study of Mus musculus with 74 samples.

Results

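The 9 genes described here encode components, receptors and regulators of complement. They are C1qa, C1qb and C1qc (the 3 chains of C1q), C3, Cfb (factor B), the receptors C3ar1 and C5ar1, and the regulators Serping1 and Cd55. They were taken by gene name from tables of 17270 to 19320 genes, each setting lung metastases (Lung met) against primary mammary tumors (PT). All 9 were listed with a mean for each tissue in the Her2 and C3Tag tables and in the table deposited under AKR, and 8 of the 9 were listed in the BALB and SEAGN tables, where Cd55 was not listed. In all, 43 member values were read.

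The series held RNA from 74 samples of transgenic mouse mammary tumors. The driver models were on the FVB background: Her2 (MMTV-neu), with 6 PT and 6 Lung met, C3Tag (the SV40 large T antigen under the C3(1) promoter, which is no complement promoter), with 7 and 7, and Myc (MMTV-Myc), with 6 and 6. The PyMT-F1 models were daughters of FVB males carrying the polyoma middle T antigen and females of the BALB/cJ, SEA/GnJ or AKR/J strain, with 6 PT and 6 Lung met for each strain. All transgenes are expressed in mammary epithelium, and all F1 animals carry an FVB allele at every autosomal gene. PyMT-F1 animals were aged to a humane endpoint. In the driver models, tumors of animals with a single lesion were removed surgically, and the animals were aged further. The methods state pooling of all primary tumors of an animal into 1 PT sample without limiting it to a model. Ages are not used here. Whole lung metastases were taken, so RNA of lung and infiltrating cells could enter them.

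Each deposited table holds the authors' mean of normalized counts for PT and for Lung met, without an SD and without values of single samples. No difference given here could therefore be set against a spread between animals, and none carries a test. A member was counted as higher or lower in Lung met when the means differed at least 1.5-fold. The share of all genes past the same fold, among genes with a mean of at least 10 over both tissues, is the background. It stands beside the count of members in each table, and the same shares apply to the 1.5-fold counts of other gene lists. Tables were normalized separately, so means are compared within a table only. Of the 36 PyMT-F1 samples, 23 carry another strain in the genotype label than in the title, and the samples behind each PyMT-F1 mean were not settled. The table deposited under AKR uses the gene identifiers of the Her2 table, and its means sum to 28641861 in PT, beside 29063636 in Her2 and 7439144 and 6833241 in the BALB and SEAGN tables. Whether it holds AKR samples was not settled, so it is called the AKR-named table. The Myc table has no group means and is left out.

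Complement is a cascade of plasma and cell surface proteins that tags and clears particles and recruits leukocytes. C1q recognizes antibody or altered surfaces and starts the classical pathway, C3 is the protein on which all routes converge, and factor B forms the convertase of the alternative pathway, which amplifies C3 cleavage. The fragments C3a and C5a act through C3ar1 and C5ar1 on myeloid cells. Serping1 (C1 inhibitor) blocks the proteases of C1, and Cd55 dissociates convertases on host cells. In most tissues macrophages are the main source of C1q, while C3 and factor B are also made by epithelium, fibroblasts and liver and are induced in inflammation.

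The C1q genes lie side by side on the minus strand of chromosome 4 in GRCm38 (GENCODE M21): C1qb at chr4:136880129-136886187, C1qc at chr4:136889804-136893065 and C1qa at chr4:136895917-136898803. The cluster spans 18675 bases, with 3616 bases between C1qb and C1qc and 2851 bases between C1qc and C1qa. The other members are spread over the genome, also on the minus strand: C3 at chr17:57203970-57228136, Cfb at chr17:34856374-34862518, C3ar1 at chr6:122847138-122856161, C5ar1 at chr7:16246743-16259540, Serping1 at chr2:84765387-84775444 and Cd55 at chr1:130439027-130462744. All are protein-coding genes.

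Sequence upstream of the annotated start is shown for C1qb and C1qc, the neighbors in the cluster with a RefSeq entry, and for C3, the member whose ratio varied most between tables. The letters come from RefSeq (GRCm38.p6, chr4:136886201-136886450, chr4:136893066-136893164 and chr17:57228137-57228386, all minus strand), written 5′ to 3′. Capitals mark GAGGAA or its reverse complement, a core bound by the myeloid factor PU.1, in the C1q genes, and TTGCNNAA, a C/EBP motif, in C3. Counted from the RefSeq start, the marked letters begin at -30 in C1qb, -193 in C1qc and -45 in C3. The C1qc stretch is limited to the 99 bases next to the GENCODE gene, whose start differs from the RefSeq start, so its end is not the RefSeq start.
C1qb: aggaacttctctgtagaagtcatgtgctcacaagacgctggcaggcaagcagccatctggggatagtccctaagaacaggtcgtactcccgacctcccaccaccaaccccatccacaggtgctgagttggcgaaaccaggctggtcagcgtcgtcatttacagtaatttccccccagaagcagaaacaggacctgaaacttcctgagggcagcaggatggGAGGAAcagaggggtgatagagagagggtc
C1qc: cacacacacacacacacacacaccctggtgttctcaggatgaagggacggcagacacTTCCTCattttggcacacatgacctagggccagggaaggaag
C3: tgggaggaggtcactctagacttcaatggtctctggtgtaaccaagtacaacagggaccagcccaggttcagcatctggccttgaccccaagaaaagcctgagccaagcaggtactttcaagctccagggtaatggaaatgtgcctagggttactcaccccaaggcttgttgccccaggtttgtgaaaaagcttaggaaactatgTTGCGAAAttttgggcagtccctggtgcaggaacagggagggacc
Both strands of the RefSeq promoter windows (250 bases before to 50 after the start) were searched for 5 motifs, and 6 of the 9 members had a window: C1qb, C1qc, C3, C3ar1, C5ar1 and Cd55. GAGGAA occurred in 28.3% of 32851 mouse windows, TTGCNNAA in 10.8%, an NF-kB motif in 1.63%, an interferon-stimulated response element in 3.44% and TATAAA in 13.6%. GAGGAA was found in C1qb and C1qc only among the 6, TTGCNNAA in C3 only, the NF-kB motif in C3ar1 only and TATAAA in C3 and C3ar1. No window of the 6 held the interferon-stimulated element, and C5ar1 and Cd55 held none of the 5 motifs. These matches describe letters and are no evidence of binding.

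Across the 5 tables, 8 of the 43 member values were higher in Lung met, 1 was lower and 34 stayed within 1.5-fold. In Her2, 0 of 9 were higher and 0 lower, beside 4.97% of all genes higher and 3.40% lower. In C3Tag, 4 of 9 were higher (C3, Cfb, C5ar1 and Cd55) and 0 lower, beside 14.0% and 5.28%. In BALB, 0 of 8 were higher and 0 lower, beside 5.53% and 5.56%. In SEAGN, 1 of 8 was higher (Cfb) and 1 lower (C3), beside 6.23% and 7.06%. In the AKR-named table, 3 of 9 were higher (C3, C5ar1 and Serping1) and 0 lower, beside 13.1% and 5.81%. Without the AKR-named table, 5 of 34 member values were higher and 1 was lower. C3Tag and the AKR-named table thus held 7 of the 8 higher values, and they were also the tables in which the most genes of any kind were higher.

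The median log2 ratio of Lung met over PT for the members was -0.13 in Her2, 0.37 in C3Tag, 0.07 in BALB, 0.07 in SEAGN and 0.33 in the AKR-named table. The median over all genes lay between -0.002 and 0.03. In C3Tag all 9 members and in BALB all 8 had a higher mean in Lung met, whereas 6 of 9 had a lower mean in Her2. The smallest of these ratios turned with centring on the median of all genes. Centred log2 ratios of C1qb in C3Tag, C1qa in SEAGN and C1qa, C1qb, Cfb and Serping1 in BALB lay below 0. This left 8 of 9 above 0 in C3Tag and 4 of 8 in BALB. The means of C3Tag summed to 40891823 in PT and 23447977 in Lung met, whereas in every other table Lung met had the higher sum. Scaling to equal sums, which would raise every C3Tag ratio, was not run, so the C3Tag ratios and counts hold for the authors' normalization only.

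**Figure D1:**
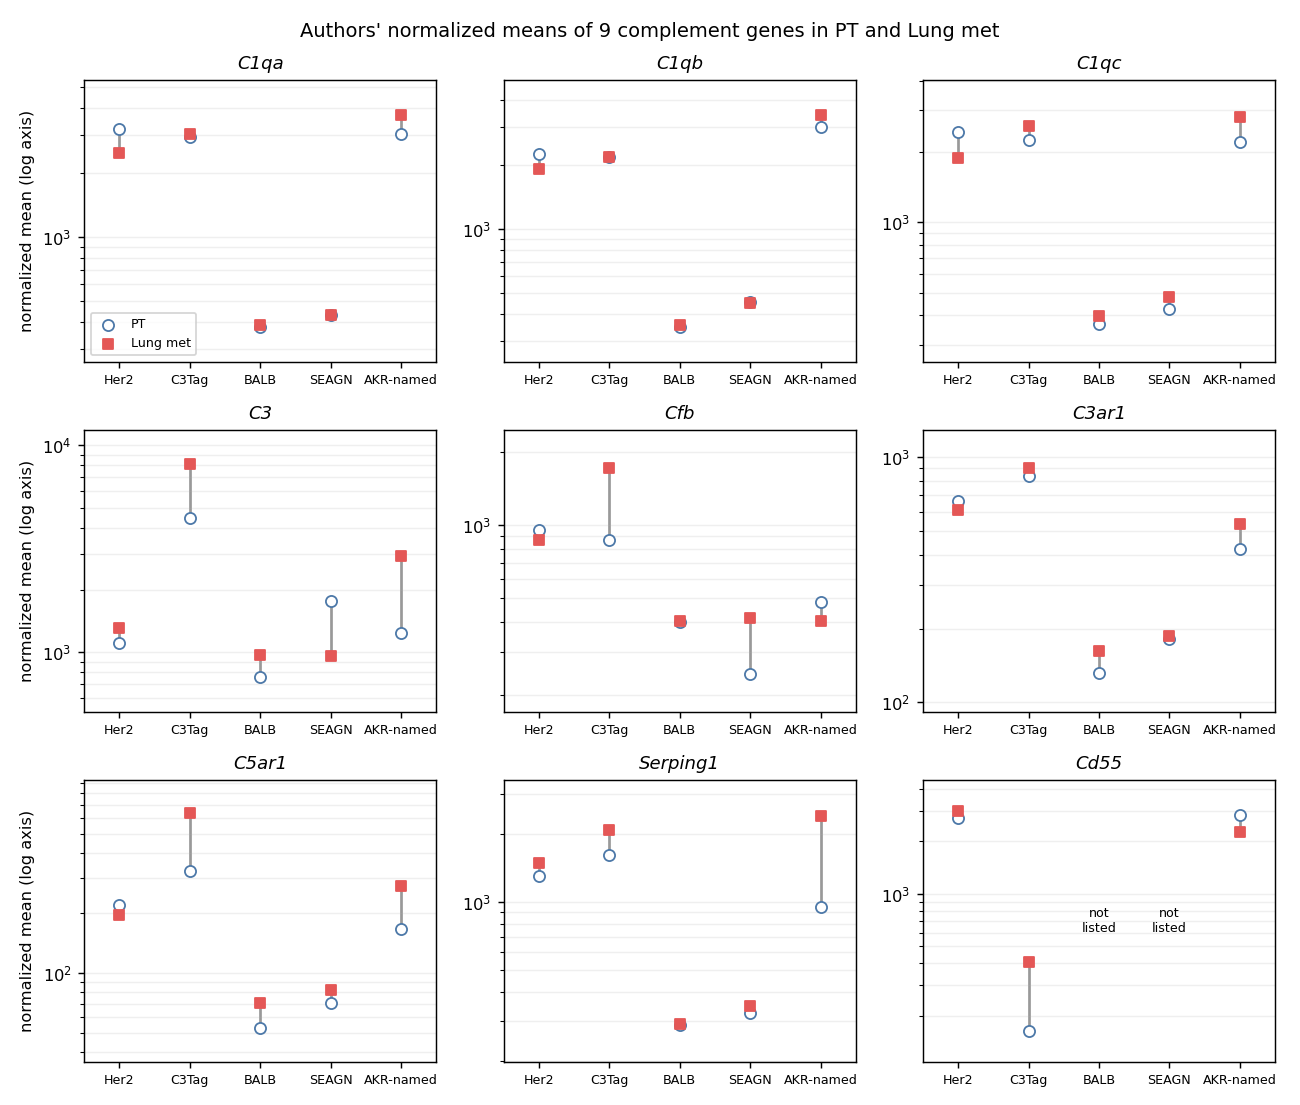
The authors' normalized mean of each member in PT (open circles) and Lung met (red squares) is plotted on a log axis for each table, joined by a line. Tables were normalized separately, so heights compare within a table only. The symbols nearly coincide for the C1q chains in BALB and SEAGN and lie farthest apart for C3, Serping1 and Cd55.

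**Figure D2:**
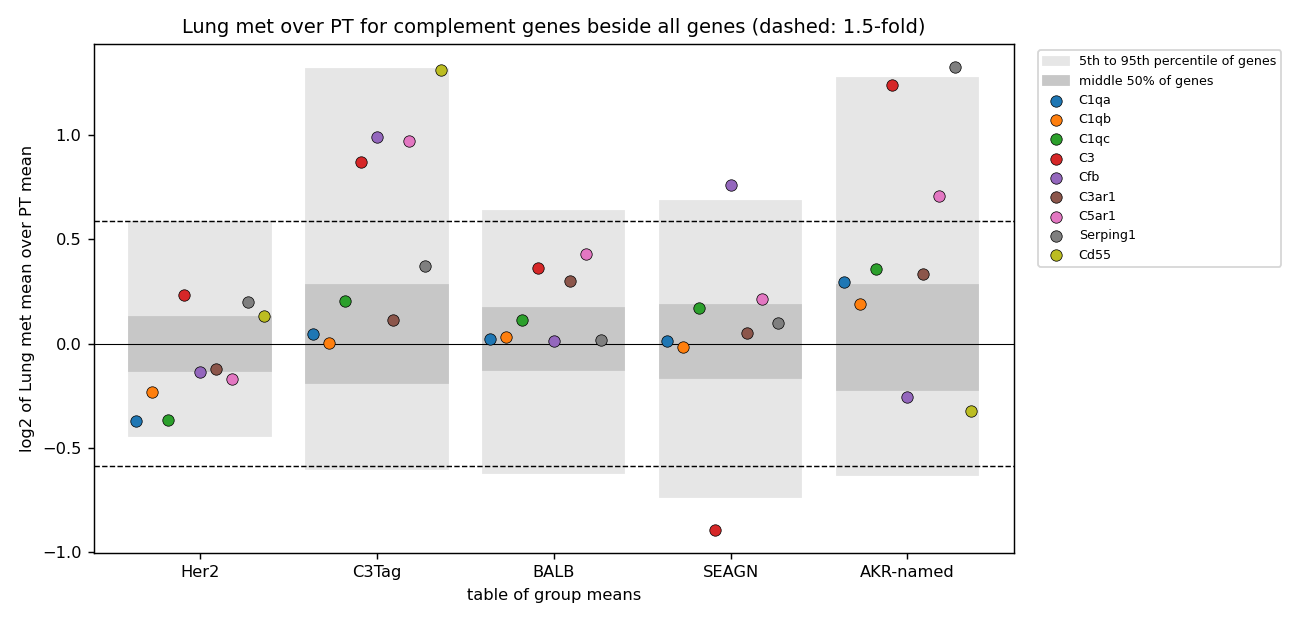
Points give the log2 ratio of the Lung met mean over the PT mean for each member and table, on grey boxes that hold the middle 50% (dark) and the 5th to 95th percentile (light) of all genes with a mean of at least 10. Of the 43 points, 8 lie above and 1 below the dashed 1.5-fold lines.

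The means of the C1q chains differed by at most 1.15-fold between tissues in C3Tag, BALB and SEAGN. C1qa, the A chain, had a mean of 3202 in PT and 2478 in Lung met of Her2, 2922 and 3016 in C3Tag, 379.9 and 386 in BALB, 429 and 432 in SEAGN, and 3041 and 3730.4 in the AKR-named table. Its log2 ratio was therefore lowest in Her2, at -0.37, and highest in the AKR-named table, at 0.29, with 0.05, 0.02 and 0.01 in C3Tag, BALB and SEAGN.

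C1qb, the B chain, had means of 2233 and 1901 in Her2, 2169.9 and 2177 in C3Tag, 349 and 356 in BALB, 454 and 449 in SEAGN, and 3008 and 3424 in the AKR-named table. Its log2 ratios ran from -0.23 in Her2 to 0.19 in the AKR-named table, a span of 0.42. Of 11796 genes with means of at least 10 in all 5 tables, 37.8% had a smaller span, so C1qb varied less between tables than the median gene, whose span was 0.51.

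C1qc, the C chain, had means of 2416 and 1875 in Her2, 2231 and 2573 in C3Tag, 366 and 396 in BALB, 425 and 478 in SEAGN, and 2199 and 2815 in the AKR-named table. Its log2 ratios were -0.37, 0.21, 0.11, 0.17 and 0.36 in that order. No C1q chain passed 1.5-fold in any table, and all 3 were lower in Lung met of Her2 and higher in the AKR-named table. In Her2 only 6.68% of all genes had a lower ratio than C1qa and 6.80% a lower ratio than C1qc.

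The proportions of the chains were read within each tissue. Per kb of annotated exon, the C1qa mean over the C1qb mean went from 1.5 in PT to 1.36 in Lung met of Her2 and from 1.41 to 1.45 in C3Tag. It went from 1.14 to 1.13 in BALB, from 0.99 to 1.01 in SEAGN and from 1.06 to 1.14 in the AKR-named table. C1qc over C1qb went from 0.61 to 0.56 in Her2, from 0.58 to 0.67 in C3Tag and from 0.59 to 0.63 in BALB, and from 0.53 to 0.60 in SEAGN and 0.41 to 0.46 in the AKR-named table. The united exons of C1qc join several transcripts, which lowers its value per kb. Exon lengths of GENCODE M21 were used for every table, although BALB and SEAGN were counted on BALB/cJ gene models. The level of any ratio per kb is therefore approximate in BALB and SEAGN, while its change between tissues does not depend on the length of a single gene. The Euclidean distance between the 5 log2 ratios was 0.18 for C1qa and C1qb, 0.25 for C1qa and C1qc and 0.36 for C1qb and C1qc. C3ar1 lay nearest to the chains among the other members, at 0.34 to 0.38. Such distances are small for many genes: 33.8% of the 11796 genes lay within 0.5 of C1qb, 15.8% of C1qa and 9.83% of C1qc.

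A list of 12 macrophage genes was listed in full in every table. Its median log2 ratio was -0.36 in Her2, 0.28 in C3Tag, -0.09 in BALB, 0.08 in SEAGN and 0.19 in the AKR-named table. The mean over the C1q chains was -0.32, 0.09, 0.06, 0.06 and 0.28 in that order, which differed from the macrophage median by 0.04, -0.19, 0.15, -0.02 and 0.09. No other list stayed as close over all 5 tables, but in single tables other lists lay nearer. The median over all genes, 0.01 in C3Tag and 0.03 in BALB, also lay nearer to C1q there than the macrophage median did. In SEAGN it was 0.02, so in these 3 tables C1q was near no change. Mammary epithelium had medians of 0.13, 0.17, 1.12, 0.30 and -0.14, of which that in C3Tag lay nearer to C1q (C1q minus the median -0.08) than the macrophage median did. Of 8 T and B cell genes only 1 to 5 had a mean of at least 10, with medians of 0.43, -0.18, -0.06, 0.41 and 1.19. Those in BALB and SEAGN rested on Cd4 alone, and that in BALB likewise lay nearer (0.11). Within the macrophage list, 1 gene was higher and 3 lower in Her2, 4 and 1 in C3Tag, 3 and 1 in BALB, 2 and 2 in SEAGN, and 4 and 0 in the AKR-named table. Lyz2 (lysozyme) was higher in all 5 tables, at 0.81 to 2.48, Cd68, a lysosomal protein of macrophages, in 4, at 0.07 to 1.16 over all 5, and Mertk, a receptor for the uptake of dying cells, in 3. Ms4a7 was lower in 4 tables and Cd163, a scavenger receptor, in 2, while Csf1r, the receptor that macrophages need for survival, stayed between -0.40 and 0.26. In tissue RNA, fewer macrophages and less C1q RNA per macrophage cannot be told apart.

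Neutrophil genes had medians of 1.42 to 3.93 over the 5 tables. In Her2, 4 of 6 listed genes were higher and 1, Mmp9, was lower (log2 -1.38). In the other tables every listed gene was higher. Cxcr2 and Mmp8 in Her2 had PT means of 3.82 and 7.44, and Retnlg in SEAGN had 6.56. These reached the minimum mean through Lung met alone. The summed level of the neutrophil genes went from 178 to 433 in Her2, from 767 to 5889 in C3Tag and from 266 to 712 in BALB. It went from 276 to 904 in SEAGN and from 715 to 9120.5 in the AKR-named table. The defining neutrophil marker Ly6g was not listed in any table. Lung alveolar epithelium had medians of 1.66 to 4.41, with 6 to 8 of 8 listed genes higher, while the surfactant genes Sftpa1, Sftpb and Sftpc were not listed. Its summed level went from 66488 to 68304 in Her2, from 4106 to 46982 in C3Tag and from 5866 to 8224 in BALB. It went from 4305 to 12068 in SEAGN and from 19526 to 49869 in the AKR-named table. These sums follow the genes with the highest means and can hide changes of the others. In Her2, Aqp5 made up most of the sum, with means of 57616 in PT and 52674 in Lung met. Yet 6 of 8 genes were higher in Her2 and 0 lower, with Ager going from 62.5 to 1847 and Lamp3 from 18.6 to 680. In BALB, Aqp5 was lower, at 3463 and 2191, while 6 genes were higher, among them Ager, at 17.6 and 290. Sftpd, Lamp3, Hopx and Rtkn2 had PT means of 5.97, 3.12, 6.77 and 6.25 in BALB. In SEAGN these were 8.53, 3.70, 6.95 and 6.20. In both tables these genes reached the minimum mean through Lung met alone, which favors calls of higher. Of 8 alveolar macrophage genes, Marco, Ear1 and Fabp1 were not listed in any table, and the medians over the 2 to 4 listed genes were 0.46 to 2.40. The lowest, in BALB, rested on Plet1 and Il1rn. Plet1 had PT means from 2968 in C3Tag to 44909 in the AKR-named table and log2 ratios of -0.14 to 0.67. Il1rn ratios ran from -0.13 to 1.55. Chil3, Ear2 and Siglecf were higher in every table that listed them, at 5.80 to 5.83, 4.30 to 5.92 and 2.67 to 3.77. All PT means of Siglecf were under 10, as was that of Chil3 in SEAGN, at 6.27. Endothelial genes had medians of 0.62 to 1.71, with 5 of 8 higher in Her2, 4 in BALB, 6 in SEAGN and all 8 in C3Tag and the AKR-named table. The shares of all genes higher were 4.97%, 5.53%, 6.23%, 14.0% and 13.1% in that order. Fibroblast genes had medians of -2.37 to -0.51, with 5 to 9 of 10 lower in each table, beside 3.40% to 7.06% of all genes. Dcn and Pdgfra were higher in C3Tag, at 0.75 and 0.80, and Pdgfra was higher in the AKR-named table, at 0.94. The part of these cell populations in the member ratios was not tested.

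**Figure D3:**
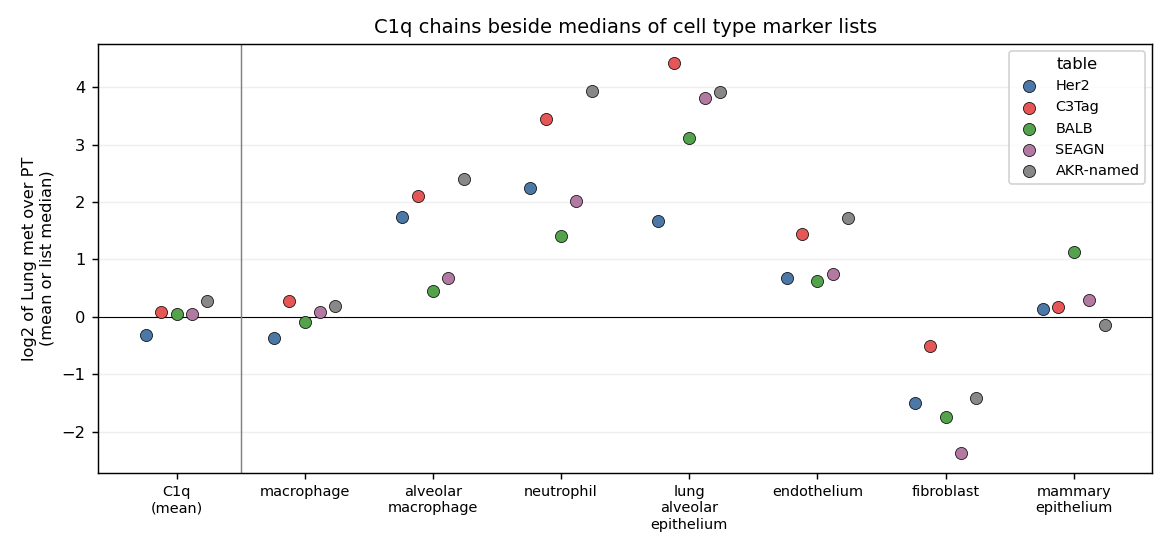
The mean log2 ratio of the 3 C1q chains (left of the line) is plotted beside the median log2 ratio of 7 lists of cell type markers, 1 point per table. C1q lies between -0.32 and 0.28 and within 0.2 of the macrophage medians, whereas neutrophil, alveolar and endothelial medians lie above 0 and fibroblast medians below 0 in all 5 tables.

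C3, the central component, varied most. Its mean was 1109.8 in PT and 1303 in Lung met of Her2, 4448 and 8123 in C3Tag, 755 and 970.4 in BALB, 1771 and 955 in SEAGN, and 1235 and 2911 in the AKR-named table. Lung met was 1.83-fold higher in C3Tag (log2 0.87) and 2.36-fold higher in the AKR-named table (log2 1.24), but 1.85-fold lower in SEAGN (log2 -0.89), with log2 ratios of 0.23 in Her2 and 0.36 in BALB. The opposite signs in SEAGN and in the other tables were not tested.

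Among all genes of a table, the C3 ratio was above 91% in C3Tag and 94.8% in the AKR-named table, and above 3.70% in SEAGN. Its span over the tables was 2.13 on the log2 scale, and 96.3% of the 11796 genes had a smaller one. In PT its mean stood above that of 96.4% of genes in SEAGN, 95.1% in C3Tag and 85.7% in BALB, but only 67.8% in Her2 and 69.6% in the AKR-named table. In Lung met the shares were 90.1%, 98.3%, 88.8%, 71.7% and 88.2% in the same order, so C3 ranked nearer alike in SEAGN, BALB and AKR-named metastases than in the matching primary tumors. Few genes shared this pattern: 0.017% of genes lay within 0.5 of it, the nearest being S100a6 (calcium-binding protein) at 0.44, Ppp1r3b at 0.45 and Fam78b at 0.55.

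Cfb, factor B of the alternative pathway, had means of 952 and 867 in Her2, 866 and 1718 in C3Tag, 399 and 402 in BALB, 245 and 415 in SEAGN, and 482 and 404 in the AKR-named table. Lung met was 1.98-fold higher in C3Tag (log2 0.99) and 1.70-fold higher in SEAGN (log2 0.76, above 95.9% of genes). In Her2, BALB and the AKR-named table the log2 ratios were -0.13, 0.01 and -0.25. Cfb overlaps the gene model Gm20547 on the same strand, a readthrough that joins Cfb with C2, so reads could be split between Cfb and Gm20547. Gm20547 was listed in the AKR-named table only, with means of 8.10 and 2.24.

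C3 and Cfb did not follow each other between tables. In C3Tag both were higher in Lung met, in SEAGN Cfb was higher and C3 lower, and in the AKR-named table C3 was higher and Cfb stayed within 1.5-fold. Their distance over the 5 tables, 2.29, was the largest of all pairs among the 8 members listed throughout. Per kb of exon, C3 over Cfb went from 3.97 in PT to 1.26 in Lung met of SEAGN and from 1.41 to 3.95 in the AKR-named table. It went from 2.82 to 2.60 in C3Tag, from 1.04 to 1.33 in BALB and from 0.64 to 0.83 in Her2. The genes nearest to Cfb were Creb3l1, a transcription factor of the endoplasmic reticulum membrane, at 0.28, Kif21a at 0.29 and Rab3a at 0.31, and 0.22% of genes lay within 0.5.

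Set against C1q per kb of exon, C3 was more abundant in Lung met than in PT of every table except SEAGN. C3 over the mean of the C1q chains went from 0.10 to 0.15 in Her2, from 0.44 to 0.76 in C3Tag, from 0.50 to 0.63 in BALB and from 0.11 to 0.21 in the AKR-named table, and from 0.98 to 0.52 in SEAGN. The exon length of C1qc joins several transcripts, so the level of these ratios is approximate, and exon lengths also weight the chains within their mean.

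**Figure D4:**
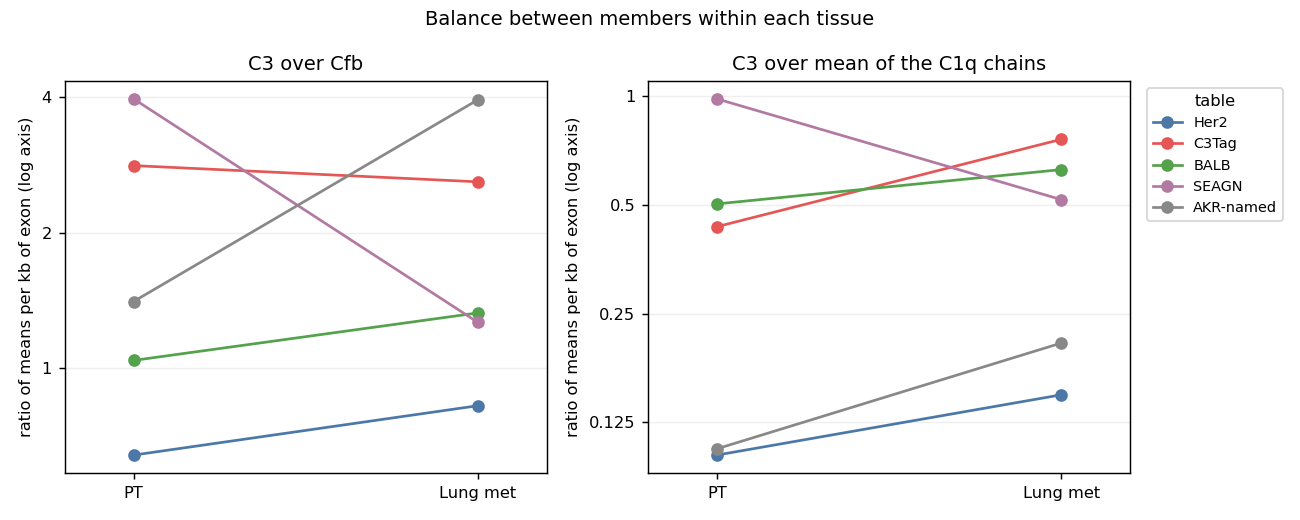
Lines join the ratio of means per kb of exon in PT and in Lung met of each table, on a log axis, for C3 over Cfb (left) and C3 over the mean of the C1q chains (right). The SEAGN line goes from 3.97 to 1.26 and the AKR-named line from 1.41 to 3.95 on the left.

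The receptors differed from each other. C3ar1, which binds C3a, had means of 659.9 and 606 in Her2, 834 and 902 in C3Tag, 131 and 161 in BALB, 181 and 187 in SEAGN, and 424 and 533 in the AKR-named table. Its log2 ratios lay between -0.12 and 0.33 and none passed 1.5-fold. Its nearest genes were Tomm6, of the mitochondrial import complex, at 0.09, Atp5d, of the ATP synthase, at 0.12 and Eif6, a ribosome assembly factor, at 0.12, but 20.8% of all genes lay within 0.5 of it.

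C5ar1, the C5a receptor of neutrophils and macrophages, had means of 218 and 194 in Her2, 323 and 633 in C3Tag, 52.5 and 70.7 in BALB, 70.3 and 81.5 in SEAGN, and 166 and 272 in the AKR-named table. Lung met was 1.96-fold higher in C3Tag (log2 0.97) and 1.63-fold higher in the AKR-named table (log2 0.71). The log2 ratios of -0.17 in Her2, 0.43 in BALB and 0.21 in SEAGN were within 1.5-fold. The C3ar1 mean over the C5ar1 mean, per kb of exon, went from 1.54 to 0.85 in C3Tag and from 1.52 to 1.17 in the AKR-named table, and from 1.80 to 1.86 in Her2, 1.49 to 1.36 in BALB and 1.53 to 1.37 in SEAGN.

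C5ar1 was higher in the tables in which neutrophil genes had their highest medians, 3.44 in C3Tag and 3.93 in the AKR-named table, beside 1.42 to 2.25 in the others. Among the others the order was not kept, since Her2 had the highest neutrophil median of these (2.25) and the lowest C5ar1 ratio, and BALB the lowest median (1.42) and the highest C5ar1 ratio. The part of neutrophils in the C5ar1 values was not tested. The gene nearest to C5ar1 was Fcgr3, a low-affinity receptor for IgG on myeloid cells, at 0.22, followed by the complement gene Cfp (properdin) at 0.32 and Atp5e at 0.32. Only 0.619% of genes lay within 0.5.

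Serping1, the C1 inhibitor, had a higher mean in Lung met of all 5 tables, although centring on the median of all genes turned its log2 ratio in BALB to -0.02. The means were 1295 and 1486 in Her2, 1609 and 2084 in C3Tag, 286 and 289 in BALB, 325 and 347 in SEAGN, and 952 and 2382 in the AKR-named table. The ratio passed 1.5-fold in the AKR-named table alone, at 2.50 (log2 1.32). The other log2 ratios were 0.20, 0.37, 0.02 and 0.10. Its nearest genes were Glt8d2 at 0.24, Slc1a3 (a glutamate transporter) at 0.25 and Gpr4 (a proton-sensing receptor) at 0.30, which likewise had their highest ratio in the AKR-named table.

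Cd55, which protects host cells from convertases, had means of 2726 (PT) and 2987 (Lung met) in Her2. The corresponding means in C3Tag were 164 and 405, and the AKR-named table gave 2813 and 2246. Lung met was 2.48-fold higher in C3Tag (log2 1.31), with log2 ratios of 0.13 in Her2 and -0.32 in the AKR-named table. The PT mean of Cd55 stood above that of 35.0% of genes in C3Tag, beside 87.2% in Her2 and 87.9% in the AKR-named table. In Lung met of C3Tag the share was 48.1%, still under the 88.5% and 83.7% of the other tables. An antisense gene model, Gm16083, overlaps the start of Cd55, and whether the counting used strand is not given in the sources used here.

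The wider cascade was read from a list of 40 further complement genes. In Her2, 7 of 26 genes with a mean of at least 10 were higher and 3 lower, with a median log2 ratio of 0.11. In C3Tag, 17 of 26 were higher and 2 lower, with a median of 0.90. In BALB, 7 of 17 were higher and 0 lower (median 0.29), in SEAGN 4 of 16 higher and 3 lower (median 0.20), and in the AKR-named comparison 12 of 26 higher and 3 lower (median 0.55). By the same measure, the medians over all genes lay between -0.002 and 0.03, and the shares of all genes past the fold are those given above.

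Of these 40 genes, 24 had a mean of at least 10 in at least 3 tables. In 3 or more tables, 7 of the 24 were higher and 1 was lower, beside 4.37% and 1.48% of all 16180 genes with such means. Of these 8, 7 remained without the AKR-named table, Itgax being the exception. Among terminal components, Hc, the gene for C5, was higher in the 4 tables that listed it, with means of 16.3 and 415 in Her2, 8.73 and 239 in BALB, 20.2 and 665 in SEAGN, and 199 and 3738 in the AKR-named table. The inbred strains FVB and AKR are known to lack secreted C5. Hc had log2 ratios of 4.23 to 5.04 and was not listed in C3Tag. C6, which joins C5b in the membrane attack complex, was higher in the 4 tables in which it was listed, at 1.46 to 3.93. Its means were 28.4 and 78.1 in Her2, 17.3 and 263 in C3Tag, 5.67 and 36.8 in BALB, and 26.9 and 337 in the AKR-named table. In BALB, Hc and C6 had PT means under 10 and reached the minimum mean through Lung met alone.

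The receptor genes Itgb2 and Itgax encode the shared beta chain and an alpha chain of leukocyte complement receptors. Itgb2 was higher in all 5 tables at 0.72 to 1.76, and Itgax in all 3 that listed it at 1.09 to 1.14. Cd93, an endothelial and myeloid surface protein once described as a C1q receptor, was higher in 4 of 5 tables, with log2 ratios of 0.54 to 1.72 over all 5. Thbd (thrombomodulin), an endothelial cofactor in complement control, was higher in all 5, at 1.04 to 2.90, and Clu (clusterin), which binds terminal complexes, in 3 of 5, with 0.26 to 3.04 over all 5. The counts of endothelial genes higher in each table are given above, and their part in the values of Cd93 and Thbd was not tested.

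Genes that start the classical and lectin pathways showed no common direction. Masp1, a lectin pathway protease, was lower in Her2, C3Tag and SEAGN at -0.65, -1.30 and -0.70, but higher in BALB at 1.23, where its means were 8.98 and 21.0. The C1q-associated protease gene C1s1 was lower in Her2 at -0.88 and in SEAGN at -0.90, higher in C3Tag at 0.77, and at -0.47 and 0.15 in BALB and the AKR-named table. C4b, the next component of the classical pathway, was listed in 3 tables. Its means were 3773 (PT) and 4253 (Lung met) in Her2, and in C3Tag they were 3401 and 4525. In the AKR-named table C4b had means of 2746 and 889 and a log2 ratio of -1.63. C4b has a near-identical copy, C4a, so its counts are uncertain. Thus in the AKR-named table C3 was higher and C4b lower in Lung met. The genes C1s1 and C4b were singled out after their values were seen, as the enzyme of the C1 complex and its substrate.

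**Figure D5:**
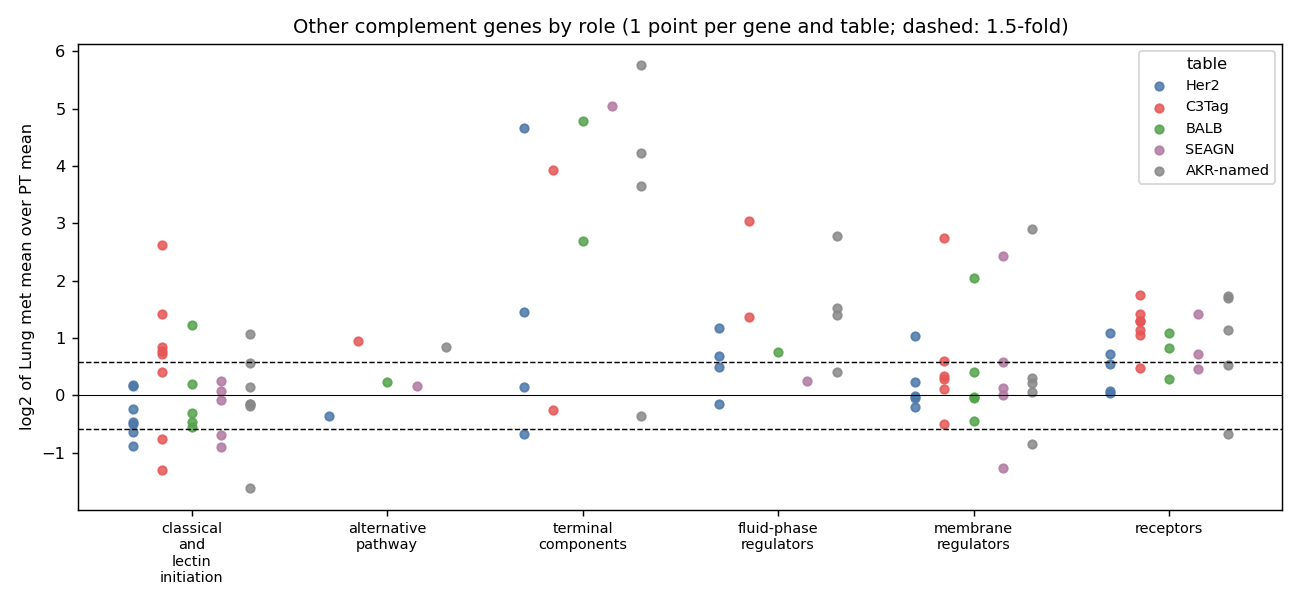
Each point is the log2 ratio of Lung met over PT for 1 of the 40 further complement genes in 1 table, for genes with a mean of at least 10, grouped by role, with dashed lines at 1.5-fold. Receptors lie mostly above 0, up to 1.76, terminal components reach 5.76, and genes of classical and lectin initiation lie on both sides of 0. The point at 5.76 is C7 in the AKR-named table, with means of 2.78 in PT and 151 in Lung met.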

How the data were processed

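RNA of PT and Lung met was sequenced by the authors and counted per gene in Partek Flow. The deposited values used here are a signal, namely the LSMean that the authors computed from normalized counts for each tissue of a model. The normalization method is not given in the sources used here, and depth per sample is unknown. The submitters' processing notes name STAR 2.7.8a, DESeq2 and mm39, whereas the methods name mm9 and mm10. The BALB and SEAGN tables use BALB/cJ gene models, and 15.5% of their genes have no symbol. The remaining columns hold the authors' p-values, FDR, ratios and fold changes from Gene Specific Analysis or DESeq2 and were not used, which leaves out the Myc table.

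Groups came from sample titles. Per gene, log2 of the Lung met mean over the PT mean was computed with Python 3.11.15, numpy 2.4.6 and pandas 2.3.3 and drawn with matplotlib 3.10.9, with no pseudocount. Calls needed a 1.5-fold difference, and the background took genes with a mean of at least 10 over both tissues. Named genes were all 9 members, pathway genes past 1.5-fold in 1 direction in at least 3 tables, and the 3 genes nearest to each member by Euclidean distance over 5 tables. Lengths are united exons of GENCODE M21, also for the BALB and SEAGN tables. The calling rule was checked on simulated group means with planted changes well past the fold. No samples were simulated, so the check does not bear on the spread between animals. Alternatives were a fold of 2, a pseudocount of 1, median centring, other minimum means and leaving out the AKR-named table. The members, lists and rules were chosen with earlier results of these data known.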

Additional observations from a re-analysis of the deposited data

How the results depend on the processing

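The log2 ratio of every member in every table kept its side of 1.5-fold, and moved by at most 0.1, with a pseudocount of 1 and with centring on the median of all genes, and all counts of members stayed the same, although centring turned the sign of 6 member ratios near 0. With a fold of 2, members higher were 1 instead of 4 in C3Tag, 0 instead of 1 in SEAGN and 2 instead of 3 in the AKR-named table, and members lower in SEAGN were 0 instead of 1. The share of all genes past a fold of 2 was not computed. Counts at that fold, here and for the further complement genes, therefore have no background and cannot be set against the 1.5-fold shares. Over all tables, leaving out the AKR-named table, chosen after seeing the data, gave 5 higher member values instead of 8. For the 40 further complement genes, a fold of 2 gave 5 instead of 7 higher in Her2 and in BALB, 12 instead of 17 in C3Tag, 3 instead of 4 in SEAGN and 11 instead of 12 in the AKR-named table, and 0 lower in Her2 and 1 each in C3Tag, SEAGN and the AKR-named table, centring gave 1 lower in BALB, and dropping the minimum mean gave 7 higher in SEAGN instead of 4. With a minimum mean of 100, genes higher were 2.85% in Her2, 3.60% in BALB and 3.95% in SEAGN, and genes lower were 1.77%, 2.67%, 3.56% and, in the AKR-named table, 3.58%. Centring leaves the distances between genes unchanged by construction. Scaling to equal sums of means was not run. Leaving out a replicate could not be run, since the tables hold means only. No paired analysis was possible because the tables hold no values of single samples, although titles join 1 PT and 1 Lung met in each of 18 PyMT-F1 animals, 14 of them with different strains in the genotype labels of both samples, and in each of 19 animals of the driver models. Without depth or spread, no interval could be given for any value.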
